A study of Mus musculus with 6 samples.

Results

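Chromatin accessibility was followed at 10 genes of mitophagy and hypoxic stress (*Bnip3*, *Bnip3l*, *Fam162a*, *Higd1a*, *Ankrd37*, *Ddit4*, *Ndrg1*, *Ero1l*, *Stc2* and *Nupr1*) in GL261 mouse glioma cells. Every ATACseq peak in a gene body or within 20 kb of it was taken as a member, with gene models from GENCODE M21 on mm10, and a peak within 2000 bp of a transcription start site of the same gene was called its own promoter peak. This gave 33 consensus peaks of 41308 in the series. All cells stably expressed pEGFP-N1 and grew in DMEM with 10% FBS. Normoxic cells were at 21% O2, and hypoxic cells had 16 h at 1% O2 or at <0.1% O2 in a chamber with 5% CO2. There were 2 libraries for each of the 3 conditions, 6 in all. No label gives separate cultures, so each p-value concerns these libraries only and not a spread between cultures. The libraries are all of this single line and measure open DNA only, with no RNA beside it.

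Mitophagy removes mitochondria by enclosing them in autophagosomes. BNIP3 and BNIP3L (NIX) sit in the outer mitochondrial membrane and bind the LC3 proteins of the forming autophagosome, and both genes are textbook targets of hypoxia-inducible factor (HIF). The other genes act around this core. FAM162A and HIGD1A are mitochondrial proteins, DDIT4 (REDD1) restrains the growth kinase mTORC1, ERO1L makes disulfide bonds in the endoplasmic reticulum, STC2 is a secreted glycoprotein, NUPR1 is a small stress-induced nuclear protein, and NDRG1 and ANKRD37 are widely used markers of low oxygen.

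The DNA just before the start sites is shown first, because HIF binds the core ACGTG or GCGTG and the promoter peaks lie over these bases. Each stretch ends at the base before an annotated start, reads 5′ to 3′ on the gene's own strand, and has every ACGTG and GCGTG on either strand in capitals, so that CACGT and CACGC are the same motifs read on the other strand. For *Higd1a* and *Nupr1*, where an annotated exon covers the start, only 30 bases around the motif nearest to the start are given, and the *Fam162a* stretch stops where the exon of its neighbour begins.

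*Bnip3*, chr7:138909520-138909679, minus strand: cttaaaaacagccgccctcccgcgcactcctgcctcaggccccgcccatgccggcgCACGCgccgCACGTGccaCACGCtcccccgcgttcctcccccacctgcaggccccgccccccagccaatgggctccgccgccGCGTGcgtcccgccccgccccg

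*Bnip3l*, chr14:67008878-67009037, minus strand: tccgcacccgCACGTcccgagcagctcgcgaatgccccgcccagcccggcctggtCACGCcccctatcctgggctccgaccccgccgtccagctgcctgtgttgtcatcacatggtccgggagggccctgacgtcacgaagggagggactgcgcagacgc

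*Fam162a*, chr16:36071595-36071684, minus strand: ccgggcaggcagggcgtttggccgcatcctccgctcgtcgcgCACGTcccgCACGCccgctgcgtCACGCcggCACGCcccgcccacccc

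*Ankrd37*, chr8:45999868-46000027, minus strand: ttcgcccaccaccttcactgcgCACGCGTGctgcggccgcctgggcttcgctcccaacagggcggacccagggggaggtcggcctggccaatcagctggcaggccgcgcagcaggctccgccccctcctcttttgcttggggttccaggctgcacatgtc

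*Ddit4*, chr10:59951835-59951994, minus strand: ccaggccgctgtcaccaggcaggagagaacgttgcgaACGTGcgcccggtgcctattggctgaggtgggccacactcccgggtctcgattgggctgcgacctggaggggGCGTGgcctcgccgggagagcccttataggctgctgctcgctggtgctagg

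*Ero1l*, chr14:45318772-45318931, minus strand: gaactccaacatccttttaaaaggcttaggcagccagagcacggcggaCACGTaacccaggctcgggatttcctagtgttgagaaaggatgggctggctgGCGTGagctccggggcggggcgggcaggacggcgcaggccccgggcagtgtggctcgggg

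*Higd1a*, chr9:121857642-121857671, minus strand: ccaccgcccctcgCACGTaaagggagtctc

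*Nupr1*, chr7:126625678-126625707, minus strand: gcgagagctttcCACGTGgaaaaacacagc

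*Bnip3* and *Nupr1* hold the palindrome CACGTG, which is an ACGTG on both strands, 94 and 18 bases before the start. *Ankrd37* has no ACGTG in this stretch and has 2 overlapping GCGTG motifs, read on opposite strands. In windows of 300 bp around the peak summits, 8 of the 9 own promoter peaks held ACGTG, against 24.5% of the 15064 promoter consensus peaks in the series, and 8 of 9 held GCGTG, against 49.2%. The AP-1 motif TGANTCA was in 0 of the 9 windows and in 11.2% of all promoter windows. Promoter GC content was similar, with a median of 62.0% for these 9 peaks and 58.8% for all promoter consensus peaks. A motif match describes the letters only.

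Peaks had been called in each library separately, and each list gives the fold of a peak over its local background and a p-value. The number of fragments stacked at a peak's summit (summit pileup) was recovered as a whole number from those values. Mean genome coverage was 2.16 and 2.36 fragments at 21% O2 and 2.93 to 3.35 in the 4 hypoxic libraries, and the lists held 33006 and 36188 peaks at 21% O2 and 39348 to 43554 in hypoxia. A pair of measures was compared over the 28432 consensus peaks found in all 6 libraries (shared peaks). The first was the log2 summit pileup, after the libraries were brought to the same median, tested with limma and called at an adjusted p under 0.05 over all shared peaks. The standard error (SE) of this fit pools the 3 conditions and is drawn towards a trend over all shared peaks. It is therefore not the spread seen between the libraries of a condition at that peak. The second was the fold rank, the percentile of a peak's fold within its library, with a call where neither hypoxic library overlapped the normoxic range and the means differed by at least 10 points in that direction. Scaling by genome coverage in place of the median would shift the median of all shared peaks by 0.17 at 1% O2 and by -0.17 at <0.1% O2 on the log2 scale.

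Most of these genes already had open promoters at 21% O2. An own promoter peak was present in all 6 libraries for 8 of the 10 genes, while *Ndrg1* and *Stc2* had none in any library. By comparison, 56.4% of 21938 protein-coding genes had a promoter peak. Of the 33 member peaks, 9 lay at own promoters, 6 at promoters of other genes, 3 in gene bodies and 15 in the flanks. Those in all 6 libraries numbered 8, 3, 1 and 8, in the same order, and 13 members were missing from at least 1 library and could not enter the tests. Another 6 regions in the windows, called in 1 or 2 libraries, never met the requirement of a shared stretch and are not counted as members.

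**Figure D1:**
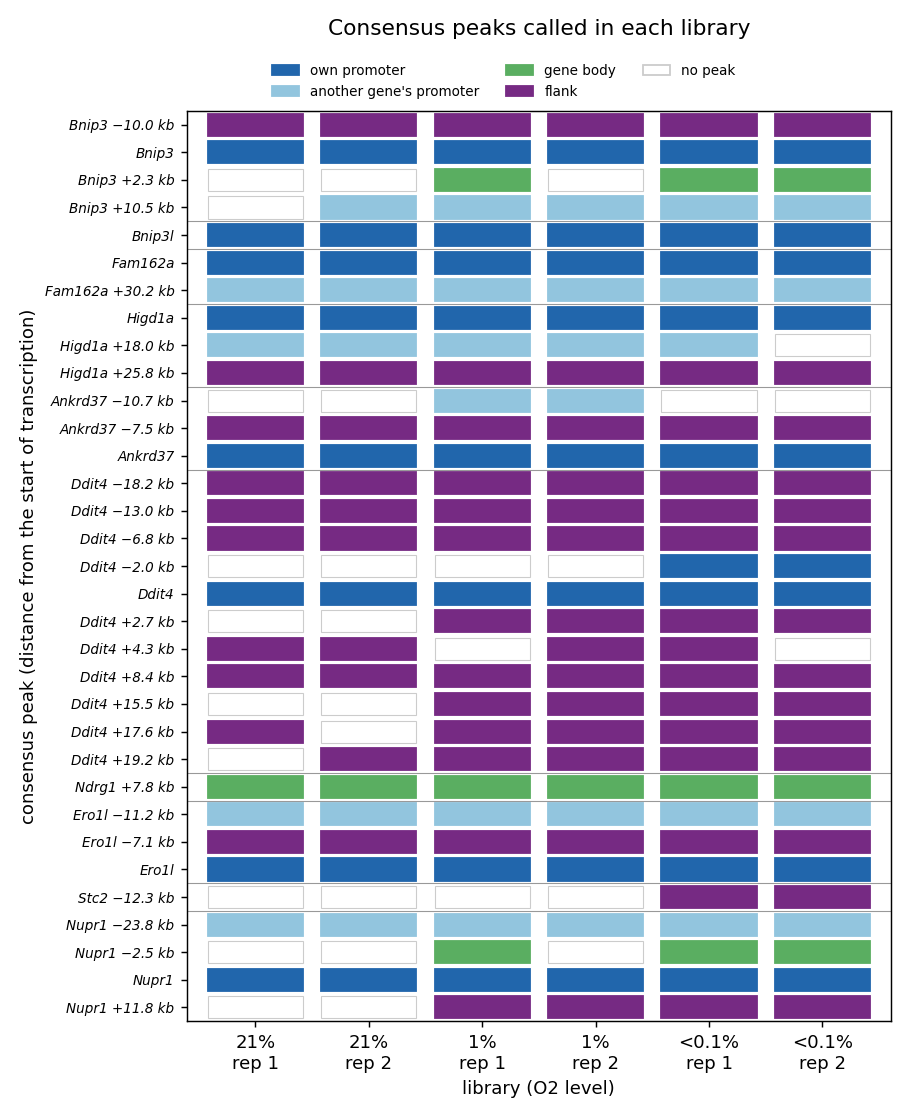
Map of the 33 member peaks (rows, named by gene and by distance from the start of transcription, minus for upstream) in the 6 libraries (columns), filled where a peak was called and coloured by location. A row with no distance is the promoter peak at the start, and 20 rows are filled throughout.

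The lists held 23 and 24 peaks in the gene windows at 21% O2, then 31 and 32 at 1% O2 and then 35 and 29 at <0.1% O2. Of the 33 members, 4 were in both libraries at 1% O2 and overlapped no peak at 21% O2, against 10.4% of all consensus peaks, and 7 were gained in this way at <0.1% O2, against 9.95%. At both levels 3 were gained, at *Ddit4* 2.7 and 15.5 kb downstream and at *Nupr1* 11.8 kb downstream. None was lost at either level, against 0.997% and 1.47% of all consensus peaks. The hypoxic libraries were deeper than the normoxic ones, and the part of depth in the gained peaks was not tested. With lists cut to equal length, 2 members were gained at each level.

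Across the 20 members found in all 6 libraries, 9 rose and 3 fell in summit pileup at 1% O2, where 16.4% of all shared peaks rose and 20.3% fell. At <0.1% O2, 8 rose and 4 fell, against 23.6% and 23.9%. The median log2 change of these members was 0.17 at 1% and 0.19 at <0.1% O2, and over all shared peaks it was -0.035 and 0.0027. The fold rank gave a different split. It put 4 members higher and 6 lower at 1% O2, against 16.6% and 18.5% of all shared peaks, and 6 higher and 7 lower at <0.1% O2, against 19.3% and 19.9%. When the log2 fold itself was fitted, 1 member was higher and 1 lower at 1% O2, against 3.76% and 2.7%, and 1 was higher and 5 lower at <0.1% O2, against 6.6% and 6.41%. The fold divides the pileup by a background that includes fragments of the peak and of its neighbours, and that background is therefore given beside the peaks below.

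The changes were split by location. Of the 8 own promoter peaks tested, 3 rose (*Nupr1*, *Ankrd37*, *Bnip3*) and 1 fell (*Fam162a*) in pileup at 1% O2, where 12.9% of all promoter peaks rose and 22% fell. At <0.1% O2 the 3 were again higher and 2 were lower (*Fam162a*, *Higd1a*), against 13.8% and 38.5%. The fold rank put 1 own promoter higher (*Nupr1*) and 4 lower (*Bnip3*, *Ddit4*, *Fam162a*, *Ero1l*) at each level, against 11.9% and 16.5% of all promoter peaks at 1% O2 and 12% and 26.5% at <0.1% O2. With the log2 fold fitted in limma, 0 own promoters were higher and 0 lower at 1% O2, against 1.66% and 1.67%, and 0 were higher and 2 lower at <0.1% O2, against 3.07% and 9.55%. At an unadjusted p under 0.05 that fit had 1 higher and 1 lower at 1% O2 and 1 higher and 4 lower at <0.1% O2. Of the 9 tested peaks in gene bodies and flanks, 5 rose and 0 fell at each level in limma, and 0 were lower at an unadjusted p under 0.05. Of all shared peaks away from promoters, 19.2% rose and 18.8% fell at 1% O2, and 31.9% rose and 11.8% fell at <0.1% O2. The median log2 change of these 9 was 0.64 at 1% and 0.90 at <0.1% O2, against 0.0032 and 0.17 over all such peaks, and 3 of the 5 that rose share the *Ddit4* locus. By fold rank 2 of the 9 were higher and 0 lower at 1% O2, against 20.6% and 20.2%, and 5 higher and 1 lower at <0.1% O2, against 25.5% and 14.5%. The fitted fold gave 1 higher and 1 lower at each level, against 5.52% and 3.57% at 1% O2 and 9.56% and 3.79% at <0.1% O2.

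**Figure D2:**
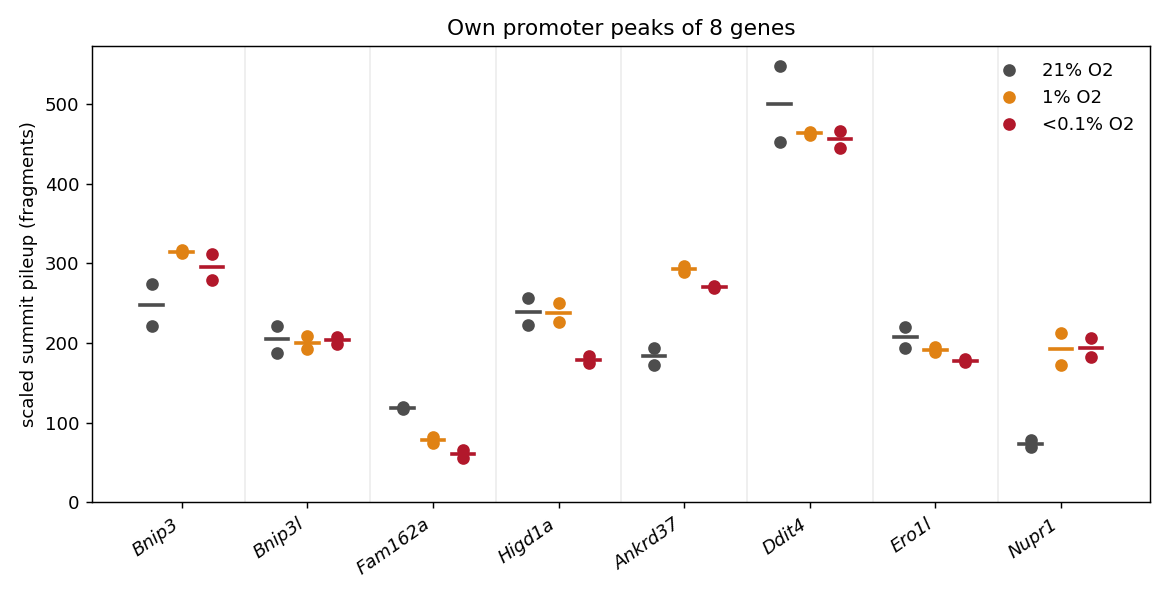
Scaled summit pileup (fragments, vertical axis) at the own promoter peak of 8 genes (horizontal axis) in each library, as points, with the mean of the 2 libraries as a bar. The hypoxic points lie above both normoxic points at *Bnip3*, *Ankrd37* and *Nupr1* and below both at *Fam162a*.

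*Bnip3* (chr7:138890836-138909519, minus strand) encodes the mitophagy receptor that is most often read as a HIF response. Its promoter peak (chr7:138909190-138910289) spans the start and had scaled pileups of 221 and 274 at 21% O2, then 316 and 313 at 1% O2 and then 312 and 279.6 at <0.1% O2. All 4 hypoxic libraries were above both normoxic ones, the closest by a few fragments. The log2 pileup rose by 0.35 ± 0.10 (SE, n = 2 libraries per condition; adjusted p = 0.00715) at 1% and by 0.26 ± 0.10 (adjusted p = 0.0357) at <0.1% O2. Without the first normoxic library the differences were 0.20 (adjusted p = 0.15) and 0.11 (adjusted p = 0.425), and without the first library at 1% O2 the adjusted p at that level was 0.0584. The call at <0.1% O2 was also lost without the first library of that level (0.18, adjusted p = 0.287) or without either library at 1% O2 (adjusted p = 0.0506 and 0.0504). Coverage scaling lost both calls, at 0.52 (adjusted p = 0.0728) and 0.098 (adjusted p = 0.767), and so did a fit with no variance trend (adjusted p = 0.0913 and 0.166).

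The fold rank of the same *Bnip3* peak fell, from 91.4 and 88.5 at 21% O2 to 76.4 and 78.6 at 1% O2 and 71.1 and 67.4 at <0.1% O2, with no overlap between normoxic and hypoxic libraries. At 1% O2 the change of -12.4 points was -7.32 with ranks taken in the whole list, under the 10 points of a call. Its local background, scaled like the pileup, was higher by 0.37 and 0.53 on the log2 scale, as much as or more than the pileup. With the log2 fold fitted the difference was -0.20 (adjusted p = 0.169) at 1% and -0.30 (adjusted p = 0.0397) at <0.1% O2. So the 2 measures differ in sign at this promoter.

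Of the other *Bnip3* peaks, the one 10.0 kb upstream had 93.6 and 95.2 scaled fragments at 21% O2, then 111 and 82.98 at 1% and then 89.1 and 86.5 at <0.1% O2, with no call in pileup and a fold rank lower by 20.3 points at <0.1% O2. A gene body peak outside the annotated exons, 2.3 kb past the start, appeared in the first library at 1% O2 and in both libraries at <0.1% O2, with raw pileups of 65, 80 and 72. A peak at the start of *Gm18258*, 10.5 kb past the *Bnip3* start, was in 5 libraries. It lies 672 bp from a *Bnip3* start that only the comprehensive annotation holds.

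*Bnip3l* (chr14:66985239-67008877, minus strand) encodes NIX, the receptor that clears mitochondria from maturing red cells. It had a single member peak, at its promoter, with scaled pileups of 187 and 222 at 21% O2, then 208 and 192 at 1% O2 and then 208 and 199.4 at <0.1% O2. The hypoxic values lay within the normoxic range. The log2 differences were -0.025 ± 0.11 (SE, adjusted p = 0.882) and -0.00053 ± 0.11 (SE, adjusted p = 0.997), and the fold rank moved by -5.54 and 5.75 points without a call. After the trend of pileup with GC content was subtracted in each library, the difference at <0.1% O2 was 0.34 (adjusted p = 0.00948), past the threshold.

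*Fam162a* (chr16:36043761-36071594, minus strand), whose product is a mitochondrial protein linked to cell death in hypoxia, shares its promoter peak with the neighbouring gene *Ccdc58*. The peak had 119 and 117 scaled fragments at 21% O2, then 82.5 and 74.2 at 1% and then 55.9 and 65.4 at <0.1% O2, a stepwise decrease with no overlap between conditions. The log2 pileup fell by 0.59 at 1% O2 (SE 0.15, adjusted p = 0.00237) and by 0.96 at <0.1% O2 (SE 0.15, adjusted p = 3.11e-06). The step between the hypoxia levels, -0.37, did not pass (adjusted p = 0.0734). Its fold rank was lower too, with changes of -13.6 and -22.9 points, of which the first was -5.65 with ranks taken in the whole list, under the 10 points of a call. Its scaled background differed by -0.64 and -0.74 on the log2 scale, and the fitted log2 fold, -0.19 and -0.33, did not pass (adjusted p = 0.286 and 0.0595). Scaling by coverage gave -0.43 (adjusted p = 0.186) at 1% O2. The peak at the *Wdr5b* promoter, 30.2 kb past the *Fam162a* start, had log2 pileup changes of -0.72 and -0.70, both called lower (adjusted p = 0.000136 and 0.000106), and at 1% O2 neither coverage scaling (-0.55, adjusted p = 0.0682) nor the fitted log2 fold (-0.37, adjusted p = 0.0907) passed. Its fold rank was called lower at both levels (-23.7 and -31.0 points).

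*Higd1a* (chr9:121848563-121858362, minus strand) encodes a small protein of the inner mitochondrial membrane. Its promoter peak, shared with *Gm47112*, was among the tallest in fold, with fold ranks of 98.1 and 97.8 at 21% O2 and 95.0 to 99.4 in hypoxia. The scaled pileups were 223 and 256 at 21% O2, then 226 and 251 at 1% O2 and then 184 and 175 at <0.1% O2, so the 1% libraries lay inside the normoxic range and the <0.1% libraries below it. The log2 difference was -0.0055 ± 0.11 at 1% O2 (SE, adjusted p = 0.974) and the pileup fell by 0.41 ± 0.11 at <0.1% O2 (SE, adjusted p = 0.00164). The call at <0.1% O2 was lost with the GC trend subtracted (-0.039, adjusted p = 0.796) and with the fold fitted (-0.046, adjusted p = 0.708).

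Downstream of *Higd1a*, 25.8 kb past its start and beyond the gene's end, a weaker peak (chr9:121830950-121831820) had 35.5 and 28.1 scaled fragments at 21% O2, then 68.9 and 52.1 at 1% O2 and then 62.9 and 71.7 at <0.1% O2. All hypoxic libraries exceeded both normoxic ones. The log2 pileup rose by 0.92 ± 0.20 (SE, adjusted p = 0.000377) and 1.09 ± 0.20 (SE, adjusted p = 2.73e-05), and the fold rank rose by 36.1 and 45.7 points. This was the only member higher at both levels in all 3 measures, with log2 fold differences of 0.65 (adjusted p = 0.0272) and 0.79 (adjusted p = 0.00823). The peak at the *Ccdc13* promoter, 18.0 kb past the *Higd1a* start, was in 5 libraries at raw pileups of 14 to 25.

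*Ankrd37* (chr8:45996902-46005707, minus strand) shares its promoter peak (chr8:45999534-46000484) with *Lrp2bp*. The scaled pileups were 173 and 194 at 21% O2, then 297 and 289 at 1% O2 and then 269 and 272 at <0.1% O2. Hypoxic and normoxic libraries did not overlap, and the peak rose by 0.68 ± 0.10 (SE, adjusted p = 2.09e-06) at 1% and 0.56 ± 0.10 (SE, adjusted p = 2.1e-05) at <0.1% O2. With coverage scaling the <0.1% value was 0.40 (adjusted p = 0.147). Its fold rank was already 90.2 and 94.4 at 21% O2 and 92.2 to 95.4 in hypoxia, with no call, its scaled background was higher by 0.47 and 0.54 on the log2 scale, and the fitted log2 fold, 0.053 and 0.015, did not pass (adjusted p = 0.691 and 0.916).

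A flanking peak 7.5 kb upstream of *Ankrd37* had a graded response, with 63.8 and 50.8 scaled fragments at 21% O2, then 85.7 and 91.8 at 1% O2 and then 156 and 126 at <0.1% O2. The 3 conditions did not overlap. It rose by 0.64 ± 0.15 (SE, adjusted p = 0.00118) and 1.29 ± 0.15 (SE, adjusted p = 1.58e-08), and the step from 1% to <0.1% O2 was 0.66 (adjusted p = 0.00187). The scaled background was higher by 0.40 and 1.15, and the fitted log2 fold, at 0.13 and 0.24, did not pass (adjusted p = 0.475 and 0.153). The fold rank changes were 8.73 points with no call and 16.8 points, called higher. Its summit lies 1678 bp from an *Ankrd37* start that only the comprehensive annotation holds. Another peak, 10.7 kb upstream at an *Lrp2bp* start, was called in the 2 libraries at 1% O2 only, at raw pileups of 28 and 32.

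*Ddit4* (chr10:59949669-59951834, minus strand) encodes the hypoxia- and stress-induced inhibitor of mTORC1 signalling and is a short gene in a dense field of peaks. It had 11 member peaks, while the median protein-coding gene had 2 in a window of the same kind and 1.26% of such genes had as many. Its promoter peak (chr10:59951360-59953194) was the tallest of all members, with 452 and 548 scaled fragments at 21% O2, then 465 and 461 at 1% O2 and then 466 and 445 at <0.1% O2. The hypoxic libraries lay near the lower normoxic one. The log2 differences were -0.10 ± 0.095 (SE, adjusted p = 0.41) and -0.13 ± 0.095 (SE, adjusted p = 0.271), and the fold rank was lower at both levels, with changes of -11.1 and -14.6 points. The change at 1% O2 was under the 10 points of a call with ranks taken in the whole list (-5.45), without the second normoxic library (-9.22) and without the first library at 1% O2 (-9.86), and with the pileup ranked the changes were -0.15 and -0.61 points. Without the first normoxic library both pileup differences passed as lower, at -0.24 (adjusted p = 0.0407) and -0.27 (adjusted p = 0.0184), and with quantile normalization the <0.1% difference did (-0.19, adjusted p = 0.0312).

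Of the 4 *Ddit4* flank peaks found in all libraries, 3 rose at both levels. The peak 8.4 kb downstream had 123 and 115 scaled fragments at 21% O2, then 265 and 215 at 1% O2 and then 267 and 323 at <0.1% O2, and rose by 1.00 ± 0.12 (SE, adjusted p = 1.62e-08) and 1.30 ± 0.12 (SE, adjusted p = 3.93e-11). The peak 6.8 kb upstream had 73.7 and 102 scaled fragments, then 167 and 142, then 203 and 184, and rose by 0.83 (adjusted p = 7.5e-06) and 1.16 (adjusted p = 1.01e-08). The peak 13 kb upstream had 213 and 256, then 389 and 364, then 438 and 435, and rose by 0.69 (adjusted p = 1.07e-06) and 0.90 (adjusted p = 3.26e-09). At all 3 peaks every hypoxic library exceeded both normoxic ones. The <0.1% O2 libraries were above those at 1% O2 at each of the 3, but the steps of 0.30, 0.33 and 0.21 did not pass (adjusted p = 0.0555, 0.0727 and 0.115).

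**Figure D3:**
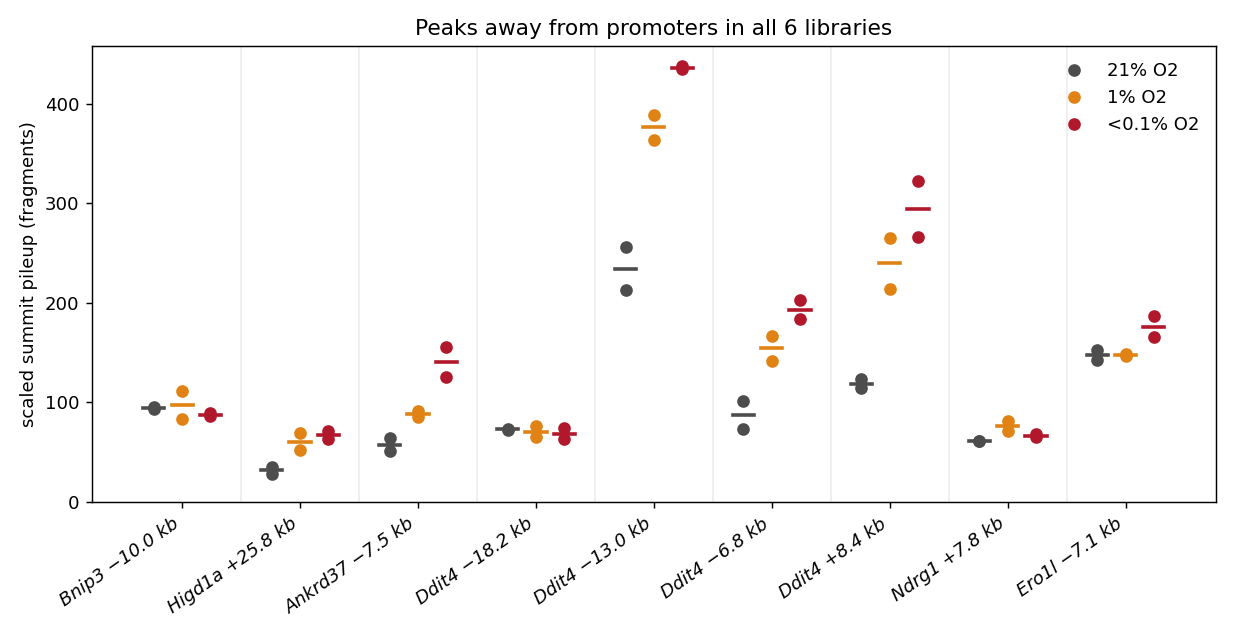
Scaled summit pileup (fragments, vertical axis) at the 9 member peaks away from promoters that were in all 6 libraries, named by gene and by distance from its start (minus for upstream), with 1 point per library and a bar for the mean of the 2 libraries. At 3 *Ddit4* peaks, at *Ankrd37* 7.5 kb upstream and at *Higd1a* 25.8 kb downstream all hypoxic points lie above the normoxic ones.

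The local background rose beside these *Ddit4* peaks, by 0.41 to 0.62 at 1% O2 and by 0.78 to 0.96 at <0.1% O2 on the log2 scale, and the fitted log2 fold of none of the 3 passed (adjusted p from 0.0573 to 0.774). By fold rank the peak 8.4 kb downstream was called higher at both levels (16.2 and 21.2 points) and the one 6.8 kb upstream at <0.1% O2 (13.7 points, and 4.09 at 1% O2), while the one 13 kb upstream had no call (-5.24 and 3.94 points). At the fourth shared flank peak, 18.2 kb upstream, the pileup differed by -0.052 and -0.092 with no call (adjusted p = 0.834 and 0.673), while its background was higher by 0.64 and 0.67 and its fitted log2 fold was lower, at -0.87 (adjusted p = 0.0088) and -0.79 (adjusted p = 0.00768). Of the *Ddit4* peaks absent from some libraries, those 2.7 and 15.5 kb downstream were in all 4 hypoxic libraries and in neither normoxic one, with raw pileups of 155 to 221 and 45 to 91. The member peak 2.0 kb upstream was called at <0.1% O2 only, and in the second library it is the end of a wide peak whose summit is at the promoter. Peaks 17.6 and 19.2 kb downstream were in all hypoxic libraries and 1 normoxic library. The one 4.3 kb downstream was in both normoxic libraries and in only 1 library at each hypoxia level.

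The 5 stretches away from promoters that rose at both levels are shown as 200 bp around the summit, on the plus strand of mm10 (GRCm38.p6), with ACGTG and GCGTG on either strand in capitals.

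*Ddit4*, 8.4 kb downstream, chr10:59943294-59943493, plus strand: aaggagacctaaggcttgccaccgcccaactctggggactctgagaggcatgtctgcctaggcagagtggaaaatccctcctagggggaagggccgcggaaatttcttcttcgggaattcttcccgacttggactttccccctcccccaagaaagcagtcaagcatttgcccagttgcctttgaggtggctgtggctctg

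*Ddit4*, 6.8 kb upstream, chr10:59958533-59958732, plus strand: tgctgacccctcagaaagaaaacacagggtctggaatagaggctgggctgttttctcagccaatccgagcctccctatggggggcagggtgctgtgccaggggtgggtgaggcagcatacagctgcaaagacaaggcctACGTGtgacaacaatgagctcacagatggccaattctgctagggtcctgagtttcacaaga

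*Ddit4*, 13 kb upstream, chr10:59964706-59964905, plus strand: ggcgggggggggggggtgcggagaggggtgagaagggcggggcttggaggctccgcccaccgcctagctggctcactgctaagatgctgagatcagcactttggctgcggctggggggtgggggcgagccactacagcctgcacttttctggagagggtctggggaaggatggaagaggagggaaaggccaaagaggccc

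*Ankrd37*, 7.5 kb upstream, chr8:46007285-46007484, plus strand: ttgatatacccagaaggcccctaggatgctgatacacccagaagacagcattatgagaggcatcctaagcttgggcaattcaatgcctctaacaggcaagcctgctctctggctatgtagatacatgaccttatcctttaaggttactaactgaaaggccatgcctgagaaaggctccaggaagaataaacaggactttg

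*Higd1a*, 25.8 kb downstream, chr9:121831601-121831800, plus strand: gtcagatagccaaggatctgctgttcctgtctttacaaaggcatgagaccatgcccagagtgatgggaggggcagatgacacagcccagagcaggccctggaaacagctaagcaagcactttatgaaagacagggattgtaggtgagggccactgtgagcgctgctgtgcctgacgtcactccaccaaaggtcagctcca

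Only the *Ddit4* stretch 6.8 kb upstream holds one of these motifs within the 200 bp shown. In windows of 300 bp the *Ddit4* peak 13 kb upstream also held 2 ACGTG, and the remaining ones held neither motif. In such windows, 5 of the 18 members in gene bodies and flanks held ACGTG, against 15.4% of the 26244 consensus peaks away from promoters. GCGTG was in 4 of 18, against 19.9%, and TGANTCA in 8 of 18, against 34.8%. TGATGNAA, a core shared by ATF4 and C/EBP composite sites, was in 2 of 18, against 5.13%, and in 1 of the 9 own promoter windows, that of *Nupr1*, against 2.16% of promoter windows.

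*Ero1l* (chr14:45283087-45318771, minus strand) encodes the oxidase that uses molecular oxygen to recharge protein disulfide isomerase. Its promoter peak had scaled pileups of 194 and 221 at 21% O2, then 188 and 195 at 1% O2 and then 176 and 179 at <0.1% O2. The <0.1% libraries lay below both normoxic ones, but the log2 differences of -0.11 ± 0.11 and -0.22 ± 0.11 (SE) did not pass (adjusted p = 0.446 and 0.0895). Without the first normoxic library the <0.1% difference was -0.31 (adjusted p = 0.0349). The fold rank changes were -12.7 points at 1% O2 and -29.4 points at <0.1% O2, both called lower. At 1% O2 the change was -5.53 without the second normoxic library, -20.0 without the first, and -6.37 with ranks taken in the whole list, and with the pileup ranked the changes were -0.35 and -3.42 points. The fitted log2 fold was lower, at -0.41 (adjusted p = 0.0229) at <0.1% O2. The peak 7.1 kb upstream had no pileup call (0.00018 and 0.25, adjusted p = 0.999 and 0.0717, with 0.32 and adjusted p = 0.0244 at <0.1% O2 under quantile normalization) and a fold rank that was called higher at <0.1% O2, with 14.5 and 10.5 at 21% O2 and 29.3 and 25.7 at <0.1% O2. The peak 11.2 kb upstream is the promoter of *Psmc6*, a proteasome subunit gene, and was lower in pileup, at -0.36 (adjusted p = 0.00543) and -0.63 (adjusted p = 5.08e-06). At 1% O2 that call was lost with coverage scaling (-0.19, adjusted p = 0.585), with the fold fitted (-0.20, adjusted p = 0.294), with no variance trend (adjusted p = 0.0595), and without the second normoxic library (adjusted p = 0.0519) or the first library at 1% O2 (adjusted p = 0.0914). Its fold rank was called lower at both levels (-14.6 and -31.6 points).

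*Nupr1* (chr7:126623249-126630861, minus strand), a stress-response gene of the ATF4 pathway, had the largest pileup rise of the 20 tested members at both levels. Its promoter peak (chr7:126625104-126626439) had 49 and 72 raw fragments at the summit at 21% O2, then 266 and 195 at 1% O2 and then 209 and 195 at <0.1% O2. Scaled, these were 69.5 and 77.9, then 213 and 172, then 183 and 206, with no overlap between normoxia and hypoxia and with the hypoxia levels overlapping each other. The log2 pileup rose by 1.38 ± 0.13 (SE, adjusted p = 1.31e-10) at 1% and 1.40 ± 0.13 (SE, adjusted p = 5.86e-11) at <0.1% O2, a 2.6-fold change at each level.

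The fold rank of the *Nupr1* promoter rose from 29.2 and 37.3 at 21% O2 to 52.3 and 46.5 at 1% O2 and 51.1 and 55.1 at <0.1% O2. Its scaled background was higher by 1.01 and 1.13, and the fitted log2 fold, 0.26 and 0.31, did not pass (adjusted p = 0.197 and 0.098). The peak 11.8 kb downstream was gained at both levels at raw pileups of 22 to 27. The one 2.5 kb upstream of the start, inside the gene body and outside exons of the basic annotation, was gained at <0.1% O2 at 59 and 59 raw fragments and was also in 1 library at 1% O2. Its summit lies 1199 bp from a *Nupr1* start that only the comprehensive annotation holds. The promoter shared by *2510046G10Rik* and *Sgf29*, 23.8 kb upstream, rose by 0.64 (adjusted p = 0.00012) at 1% O2, and at <0.1% O2 the difference was 0.29 (adjusted p = 0.0535). At 1% O2 the fitted log2 fold did not pass (0.29, adjusted p = 0.129), and at <0.1% O2 the pileup passed under 4 alternatives, with adjusted p from 0.0158 to 0.0488. Its fold rank was called higher at 1% O2 (12.1 points) and not at <0.1% O2 (2.62 points).

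*Ndrg1* (chr15:66929318-66969640, minus strand) and *Stc2* (chr11:31357307-31370074, minus strand) gave little signal. The intronic *Ndrg1* peak 7.8 kb past the start had 60.99 and 61.6 scaled fragments at 21% O2, then 71.3 and 81.2 at 1% O2 and then 68.2 and 65.4 at <0.1% O2. The hypoxic libraries were the higher ones, but the log2 differences of 0.31 ± 0.17 and 0.12 ± 0.17 (SE) did not pass (adjusted p = 0.141 and 0.568). For *Stc2* the single member, 12.3 kb upstream, was called at <0.1% O2 only, with 21 raw fragments in each library, close to the smallest pileup of any called peak there, 13. A missing peak means that no peak was detectable at this depth.

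**Figure D4:**
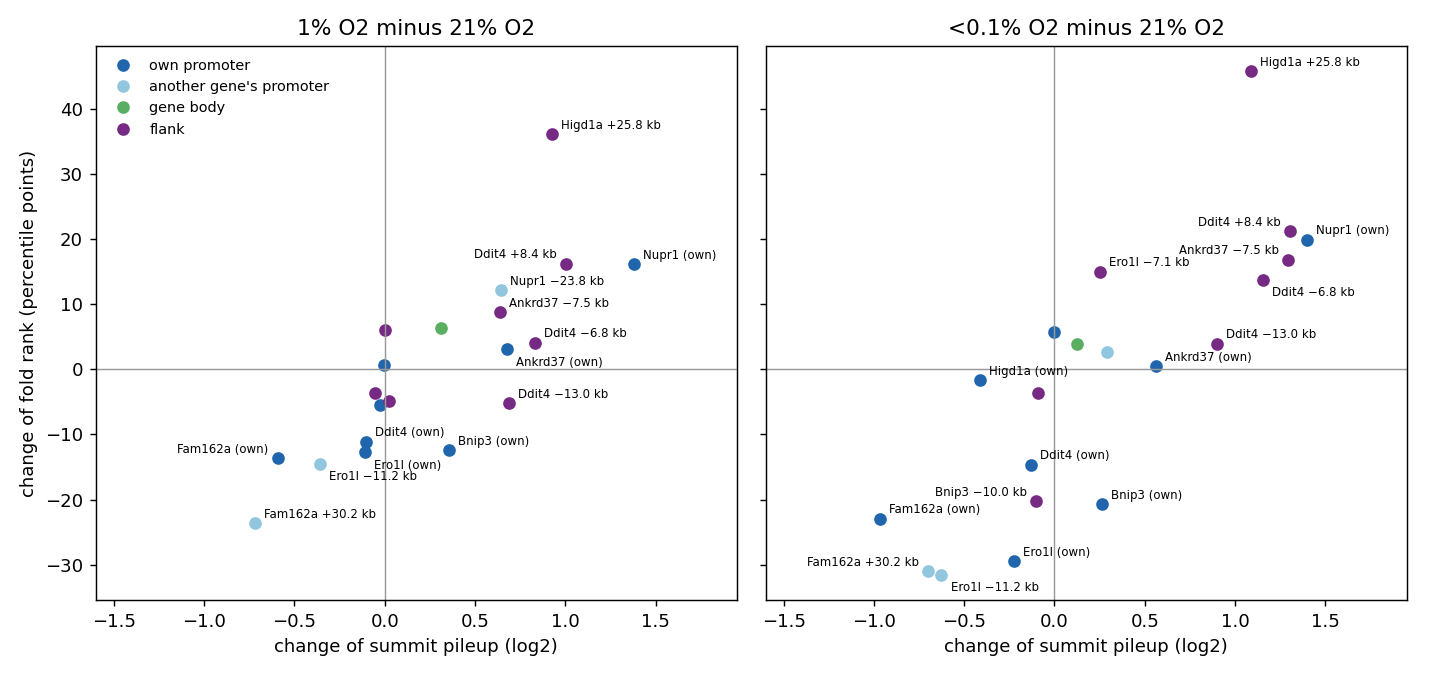
Change of fold rank (percentile points, vertical axis) against change of log2 summit pileup (horizontal axis) for the 20 members in all 6 libraries, at 1% O2 (left) and <0.1% O2 (right), each less 21% O2, coloured by location and named where either measure was called. *Higd1a* 25.8 kb downstream is high on both axes, while the *Bnip3* promoter lies right of 0 in pileup and below 0 in rank.

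At <0.1% O2 compared with 1% O2, the pileup was higher for 1 of the 20 members, *Ankrd37* 7.5 kb upstream, and lower for 2, the *Higd1a* promoter (-0.41, adjusted p = 0.0049) and the promoter 23.8 kb from *Nupr1* (-0.35, adjusted p = 0.04). Over all shared peaks, 13.8% were higher and 9.99% lower in this comparison. For the other 17 the difference between the levels did not pass. With the GC trend subtracted none of the 3 steps passed, at 0.40 (adjusted p = 0.0815) for *Ankrd37*, -0.10 (adjusted p = 0.603) for *Higd1a* and -0.26 (adjusted p = 0.18) for the promoter near *Nupr1*. None passed with the fold fitted either, at 0.11, -0.082 and -0.26 (adjusted p = 0.603, 0.56 and 0.221), and coverage scaling gave 0.32 (adjusted p = 0.288), -0.74 (adjusted p = 0.00777) and -0.68 (adjusted p = 0.0167). The *Ankrd37* step was also lost without the first library at <0.1% O2 (0.50, adjusted p = 0.0981). The *Higd1a* step was lost without the second library at 1% O2 (-0.33, adjusted p = 0.0987) or the second at <0.1% O2 (-0.37, adjusted p = 0.06), and the step near *Nupr1* without any 1 of the 4 hypoxic libraries (adjusted p from 0.107 to 0.237).

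Promoters of other mitophagy genes were set beside the members. All 26 listed genes had a testable promoter peak. At 1% O2, 3 rose and 4 fell, where 12.9% of all promoter peaks rose and 22% fell, and at <0.1% O2, 3 rose and 11 fell, against 13.8% and 38.5%. Their median log2 changes were -0.11 and -0.14, against -0.070 and -0.19 over all promoter peaks. By fold rank 1 was higher and 6 lower at 1% O2, against 11.9% and 16.5% of all promoter peaks. At <0.1% O2, 3 were higher and 10 lower in rank, against 12% and 26.5%. Among those that rose at both levels were *Pink1*, the kinase that marks damaged mitochondria, at a promoter shared with *Gm27646* (0.69 and 0.67), and *Ulk1*, the kinase that starts autophagy (0.49 and 0.44). In fold rank *Pink1* was called higher at <0.1% O2 only (9.40 and 12.2 points) and *Ulk1* at neither level (5.59 and 5.24 points). The 4 that fell at both levels were *Pgam5*, a mitochondrial phosphatase (-0.82 and -1.45), *Phb2*, an inner membrane receptor, at a promoter shared with *Emg1* (-0.51 and -0.90, with rank changes of 8.35 and 0.43 points and no call), *Bcl2*, the survival factor (-0.62 and -0.90), and *Atg13*, a partner of ULK1, at a promoter shared with *Harbi1* (-0.61 and -0.78). *Map1lc3a*, an LC3 gene, fell by 0.87 at <0.1% O2 and differed by -0.37 (adjusted p = 0.0632) at 1% O2. The list was not tested as a set.

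Of 12 genes of the mTORC1 pathway on which DDIT4 acts, *Deptor*, an mTOR inhibitor whose promoter peak is shared with *Gm9920*, rose at 1% O2 (0.34, adjusted p = 0.00806) and *Ywhaz*, a 14-3-3 protein gene, fell at both levels (-0.30 and -0.48, adjusted p = 0.0176 and 0.000192). Over all promoter peaks, 12.9% rose and 22% fell at 1% O2, and 13.8% and 38.5% at <0.1% O2. By fold rank neither was called. Of the list 0 were higher and 1 lower in rank at 1% O2, against 11.9% and 16.5% of all promoter peaks. At <0.1% O2, 0 were higher and 2 lower, against 12% and 26.5%. The other genes of this list did not pass in pileup, *Mtor*, *Tsc1*, *Tsc2* and *Rheb* included. Of 10 paralogs of the members, 7 had a testable promoter peak and 3 rose at both levels, all of the *Ndrg* family, where 12.9% and 13.8% of all promoter peaks rose. *Ndrg2* had 73.7 and 80.0 scaled fragments at 21% O2, then 135 and 138 at 1% and then 141 and 132 at <0.1% O2, and rose by 0.83 at each level (adjusted p = 4.79e-06 and 2.83e-06). *Ndrg3* rose by 0.50 and 0.32, and *Ndrg4* by 0.46 and 0.35. By fold rank *Ndrg2* was called higher at <0.1% O2 (15.1 points) and *Ndrg3* at 1% O2 (15.6 points), with no call for either at the other level and none for *Ndrg4* (0.97 and 5.84 points). Of the 7 paralogs, 1 was higher and 0 lower in rank at 1% O2, against 11.9% and 16.5% of all promoter peaks. At <0.1% O2, 1 was higher and 2 were lower, against 12% and 26.5%. *Ndrg1* itself had no promoter peak.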

How the data were processed

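ATACseq was carried out on 6 libraries of GL261 cells, fixed with 1% formaldehyde, the hypoxic ones while still in hypoxia, and 25000 cells were used per library. Per the study's methods and the labels, the authors trimmed the reads, aligned them to mm10 with Bowtie2 2.2.5, removed duplicates with Picard, ran the peak caller MACS2 2.1.1.2 on each library and took out blacklisted regions, so replicates were not pooled. The deposited lists give a fold ratio over the local background, and a -log10 p-value and a -log10 q-value per peak as the authors' caller wrote them. Summit positions came from the same lists.

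Summit pileup and background were recovered from the fold and p-value as whole fragments for 100% of the peaks (tolerance 0.01 in -log10 p). The smallest background of a library was read as its mean genome coverage (2.16 to 3.35 fragments). Consensus peaks were made from overlaps of more than 200 bp between the replicates of a condition, which were then joined over the 3 conditions. A site's position is the median summit inside it. limma 3.58.1 (R 4.3.3) was fitted to the log2 pileups of all 6 libraries with a variance trend, two-sided, with Benjamini-Hochberg adjustment over 28432 peaks, and was checked on simulated data. An exact permutation test of 2 libraries against 2 cannot go below 0.33 and was not used. No values of the study's read counts were analysed here. Start sites came from the GENCODE M21 basic set and bases from GRCm38.p6, and all 10 genes matched by symbol. Python 3.11.15, pysam 0.24.0 and pandas 2.3.3 were used.

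The members, gene lists and motifs were chosen with earlier results of these data known. All 10 genes are named with each of their peaks, and of each other list at most 8 called promoters by size of change. A gene counted in the list of other mitophagy genes is not reported by name here. Alternatives covered the overlap and threshold of peaks, list length, flank size, scaling, the value ranked or fitted, GC content, a replicate block and each library left out, and the comprehensive annotation and the alternatives for <0.1% against 1% O2 were added after seeing the data.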

Additional observations from a re-analysis of the deposited data

Results flagged for a closer look

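At 3 member peaks the change from 21% O2 differed between the hypoxia levels in the limma test of <0.1% against 1% O2. The peak 7.5 kb upstream of *Ankrd37* was higher at <0.1% O2 by 0.66 on the log2 scale (adjusted p = 0.00187). The *Higd1a* promoter was lower by -0.41 (adjusted p = 0.0049), and the promoter shared by *2510046G10Rik* and *Sgf29*, 23.8 kb upstream of *Nupr1*, by -0.35 (adjusted p = 0.04). With the GC trend subtracted these steps were 0.40, -0.10 and -0.26 and none passed (adjusted p = 0.0815, 0.603 and 0.18), and none passed with the fold fitted.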

How the results depend on the processing

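Of the 178 counts of member peaks obtained under other settings, 140 stayed within 1.5 times the reported one. The 140 include counts that could not change. Fold rank and gained counts at a hypoxia level use only the libraries of that level and the normoxic ones. Leaving out a library of the other hypoxia level therefore returned the reported count, which says nothing of its stability. With the log2 fold fitted, 1 member was higher at each level and 1 was lower at 1% O2. Within 5 kb of the genes, 4 were higher in pileup at each level, 1 and 2 in fold rank, and 2 and 4 were gained at 1% and <0.1% O2. With lists of equal length 2 were gained at each level, and with coverage scaling 0 were lower at 1% O2 in limma (1 at an unadjusted p under 0.05). Members higher in rank at 1% O2 numbered 8 in whole lists, 7 with the pileup ranked, 9 with -log10 q ranked, 7 at 5 points and 1 at 20 points, and lower ones 1, 2 and 3 for the first 3 and 1 at 20 points. At <0.1% O2, 2 were higher at 20 points, 2 lower with the pileup ranked and 4 with -log10 q ranked. With 1 library left out, pileup gave 8 to 9 higher and 2 to 4 lower at 1% O2 and 7 to 9 higher and 4 to 6 lower at <0.1% O2, rank 4 higher and 4 to 6 lower, then 5 to 7 higher and 7 lower, and gained peaks 4 to 6, then 7 to 9. For <0.1% against 1% O2, where alternatives were chosen after seeing the data, 0 members were higher with coverage scaling or the fold fitted (0 at an unadjusted p under 0.05 in both limma fits) and 2 with peaks of low pileup left out. Lower ones numbered 4 with coverage scaling and 0 with the fold fitted, with no variance trend or with the GC trend subtracted (3, 3 and 2 at an unadjusted p under 0.05 in limma), and with 1 library left out 1 to 4 were higher and 0 to 3 lower.

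Replicate numbers are shared between conditions. The differences between the replicates of a condition were nearly uncorrelated from condition to condition (correlations of -0.051, -0.013 and 0.0079). These correlations cannot show whether same-numbered libraries shared a day or a culture. The fit with the replicate block gave 9 higher and 3 lower at 1% O2 and 8 higher and 4 lower at <0.1% O2.

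Single values that changed sign were mostly near 0. With the fold fitted these were the *Bnip3* promoter (-0.20, -0.30), *Ddit4* 13 kb upstream (-0.074), *Bnip3* 10.0 kb upstream (-0.081), the *Higd1a* promoter (0.036) and *Bnip3l* at <0.1% O2 (0.078), and the *Bnip3* rank change was 6.15 and 4.44 with the pileup ranked. At 1% O2, coverage scaling gave 0.14 (*Bnip3l*), 0.062 (*Ddit4* promoter), 0.11 (*Ddit4* 18.2 kb upstream), 0.16 (*Higd1a*) and 0.055 (*Ero1l*), and at <0.1% O2 -0.042 (*Ndrg1*). Quantile normalization gave 0.079 and 0.072 at *Bnip3l* and 0.10 at *Higd1a*. GC correction gave -0.016 (*Bnip3* 10.0 kb upstream), 0.038 (*Bnip3l*) and 0.063 (*Higd1a*) at 1% O2, and 0.34 (*Bnip3l*), 0.033 (*Ddit4* promoter) and 0.12 (*Ero1l*) at <0.1% O2. With 1 library left out, the values that changed sign were none of them called with all libraries, and the *Ddit4* promoter passed as lower at both levels without the first normoxic library. They ranged at 1% O2 from -0.19 to 0.24 (*Bnip3* 10.0 kb upstream), -0.15 to 0.097 (*Bnip3l*), -0.24 to 0.034 (*Ddit4* promoter), -0.16 to 0.058 (*Ddit4* 18.2 kb upstream), -0.11 to 0.096 (*Higd1a* promoter) and -0.051 to 0.051 (*Ero1l* 7.1 kb upstream), and at <0.1% O2 from -0.12 to 0.12 (*Bnip3l*), -0.27 to 0.0094 (*Ddit4* promoter) and -0.21 to 0.023 (*Ddit4* 18.2 kb upstream). The cause was not tested. Coverage was lower in both normoxic libraries than in the hypoxic ones, and the part of depth in the gained peaks was not tested. A pileup at a summit says nothing of the reads in the rest of the peak.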
